A study of Homo sapiens with 16 samples.

Results

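The genes described here are the protein-coding genes of chromosome 19 whose symbol is ZNF followed by a number and nothing else. By that rule, applied to GENCODE release 29 on GRCh38, 241 of the 60666 genes in the deposited tables were members, and 213 of them had enough counts to be tested. RNA was sequenced from U2OS, a human osteosarcoma line that the labels call a sarcoma line, after depletion of ribosomal RNA. Of the 4 lines, the control carried the empty plko.puro vector, a pair of lines carried stable short hairpins that target 1 lipid kinase gene each, PIP4K2A or PIP4K2B, and the double knockdown carried both kinds of hairpin. Cells were harvested without treatment or 6 h after irradiation with 30 J/m2 of ultraviolet C, which made 8 groups of 2 libraries. All cells, controls included, grew in puromycin, and for the control vector no hairpin is named.

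C2H2 zinc fingers are small folds around a zinc ion, and tandem arrays of them read DNA sequence. Most ZNF genes of chromosome 19 lie in tandem clusters made by repeated gene duplication. Many of their products join the finger array to a KRAB domain, which recruits the corepressor TRIM28 and, through it, the histone methyltransferase SETDB1 and other silencing factors to transposable elements and other targets. A KRAB A-box pattern was found in the translated coding sequence of 198 (82.2%), and the median number of finger patterns was 12, from 0 to 39. Clusters with gaps of at most 500 kb and at least 5 members numbered 10 and held 229 members. For 182 members another member matched the larger part of the coding sequence, at a median identity of 82.5%. For 28 members that identity was 90% or more, so reads may have been shared between copies. Other annotated genes overlapped 175 members, 128 of them on the opposite strand. The libraries were made with a directional kit, but the strand setting used for counting is not given in the sources used here.

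Promoter sequence was compared between the members and other genes without any use of RNA levels. RefSeq promoters (GRCh38.p14, 250 bases before to 50 after the start) were matched for 210 members. The letters CCGGAAG, the core of a site for ETS transcription factors, occurred on either strand in 44.3% of them. The share was 37.1% for ZNF genes of other chromosomes, 13% for other protein-coding genes of chromosome 19 and 14.4% for all protein-coding genes. CCAAT occurred on either strand in 52.9% of member promoters, against 44.3%, 37.6% and 36.6% in those 3 sets. GGGCGG (the GC box) occurred in 69.5% against 60.3%, 66.9% and 59.3%, and TATAAA in 1.9% against 4.64%, 8.06% and 9.59%. A match of letters is a description and not a shown binding site.

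The 250 bases before the start are printed for 4 members, 5′ to 3′ on the gene's own strand, with the ETS letters in capitals. ZNF20 (chr19:12140351-12140600, minus strand) and ZNF254 (chr19:24086937-24087186, plus strand) are shown because their RNA fell strongly after UV. ZNF324 (chr19:58466830-58467079, plus strand) fell in the double knockdown. ZNF699 (chr19:9309839-9310088, minus strand) was highest in the single knockdowns.
ZNF20: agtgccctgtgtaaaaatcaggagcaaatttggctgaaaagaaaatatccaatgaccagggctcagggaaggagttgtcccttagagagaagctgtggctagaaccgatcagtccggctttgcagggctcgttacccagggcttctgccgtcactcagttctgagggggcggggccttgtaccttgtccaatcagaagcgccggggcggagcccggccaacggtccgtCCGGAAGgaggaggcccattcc
ZNF254: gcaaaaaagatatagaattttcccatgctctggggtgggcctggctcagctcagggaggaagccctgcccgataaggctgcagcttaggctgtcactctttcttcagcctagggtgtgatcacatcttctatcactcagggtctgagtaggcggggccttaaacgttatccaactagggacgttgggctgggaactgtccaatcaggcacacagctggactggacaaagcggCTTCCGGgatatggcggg
ZNF324: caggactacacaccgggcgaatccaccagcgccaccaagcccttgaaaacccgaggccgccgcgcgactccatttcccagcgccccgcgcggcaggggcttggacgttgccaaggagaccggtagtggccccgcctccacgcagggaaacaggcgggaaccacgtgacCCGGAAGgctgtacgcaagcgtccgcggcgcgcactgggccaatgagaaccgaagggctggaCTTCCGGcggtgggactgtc
ZNF699: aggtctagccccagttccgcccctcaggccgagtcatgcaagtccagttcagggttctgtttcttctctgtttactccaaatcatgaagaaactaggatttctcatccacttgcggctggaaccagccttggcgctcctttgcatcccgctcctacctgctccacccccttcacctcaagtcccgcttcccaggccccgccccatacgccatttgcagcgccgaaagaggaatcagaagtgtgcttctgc
The ETS letters begin 22 bases before the start in ZNF20 and 18 bases before it in ZNF254. ZNF324 has them 2 times, 82 and 20 bases before the start, and ZNF699 has none in this window. Over all tested members with a matched promoter, those with the letters had smaller median falls after UV than those without. That split is given below and was not tested.

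The untreated empty-vector library numbered replicate 1 was set aside by the rule. It held 1.28 M counts against 28.0 to 39.9 M in the other 15. All 8 blood marker genes exceeded a level of 1 CPM (counts scaled to a common library total) there, against 0 to 2 elsewhere. So did all 11 epithelial markers (5 to 8 elsewhere) and 7 of 8 mesenchymal markers (5 elsewhere). At this depth 1 CPM stands for very few counts. The remaining untreated vector library is 1 sample, whose variation is taken to equal that of the other groups. The labels do not say whether replicates came from separate cultures, so the p-values rest on a spread between libraries that may be technical. PIP4K2A stood at 62.9 CPM in the untreated vector library, at 15.5 to 22.9 in the untreated lines with its hairpin and at 7.48 to 9.11 in those lines after UV. PIP4K2B stood at 107 CPM in the untreated vector library and at 11.4 to 26.6 wherever its hairpin was present. Of the mesenchymal markers, COL1A1 (1354 to 3265 CPM), SPARC, VIM and RUNX2 were high, while COL1A2, BGLAP and SP7 stayed below 1 CPM. Summed epithelial markers, mostly KRT8 and KRT18, were 276 to 502 CPM untreated and 332 to 946 after UV. Their part in the results below was not tested. Summed blood markers were 0.779 to 2.36 CPM in the 15 libraries.

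Most members were expressed at low levels. The median over members of their median TPM (deposited transcript abundance, a level per transcript length) was 1.06, and 124 members reached 1 TPM. For the 213 tested members the median of mean CPM was 5.12, against 5.64 for all 22597 tested genes and 18.4 for tested protein-coding genes. Of the 28 members not tested, 6 had no count in any of the 15 libraries, and the highest mean among the 28 was 0.0516 CPM. ZNF358 had the highest level per length, with a median of 30.8 TPM (range 23.7 to 57.5 over 15 libraries). ZNF146, whose product consists of zinc fingers alone, followed at 19.8 TPM (10.7 to 39.0), then ZNF428 at 18.2 TPM (16.2 to 20.7), ZNF580 at 14.9 TPM (11.8 to 28.5) and ZNF460 at 13.2 TPM (6.05 to 17.0). These ranges pool all 8 groups, and those of neighbours overlap, ZNF358 and ZNF146 included. They therefore do not separate neighbours in the order from ZNF358 to ZNF460. ZNF574, ZNF787, ZNF302, ZNF121 and ZNF414 completed the highest 10, with medians from 6.1 to 7.29 TPM.

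Many more members fell than rose after UV in each of the 4 lines. Their summed level was 2168 to 2739 CPM in the 7 untreated libraries and 1315 to 1748 CPM in the 8 libraries after UV, without overlap. CPM values leave out the TMM scaling factors used in the test. Those factors were 1.08 to 1.15 in untreated libraries and 0.873 to 0.954 after UV. The gap in CPM is therefore wider than on the tested scale. In empty-vector cells 73 of 213 members fell and 2 rose (edgeR quasi-likelihood test, Benjamini-Hochberg adjusted p under 0.05), while 9.82% of all tested genes fell and 8.67% rose. In the PIP4K2A knockdown 91 members fell and 8 rose, against 14% and 16.6% of all genes. In the PIP4K2B knockdown 107 fell and 7 rose, against 15.4% and 17.5%. In the double knockdown 118 fell and 4 rose, against 16.1% and 19.1%. Median log2 changes of the members were -0.50, -0.45, -0.56 and -0.59 in the same order, and those of all genes lay between 0.00 and 0.02. With the set-aside library included, 79, 5, 7 and 10 members were called, with 12%, 0.534%, 0.783% and 1.21% of all genes. Without the second vector library after UV the count was 43 in vector cells, without the first untreated PIP4K2B library it was 72 in that line, and without the first untreated or first UV-treated double knockdown library it was 80 and 81 there. In bulk RNA, fewer expressing cells and less RNA per cell cannot be told apart.

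**Figure D1:**
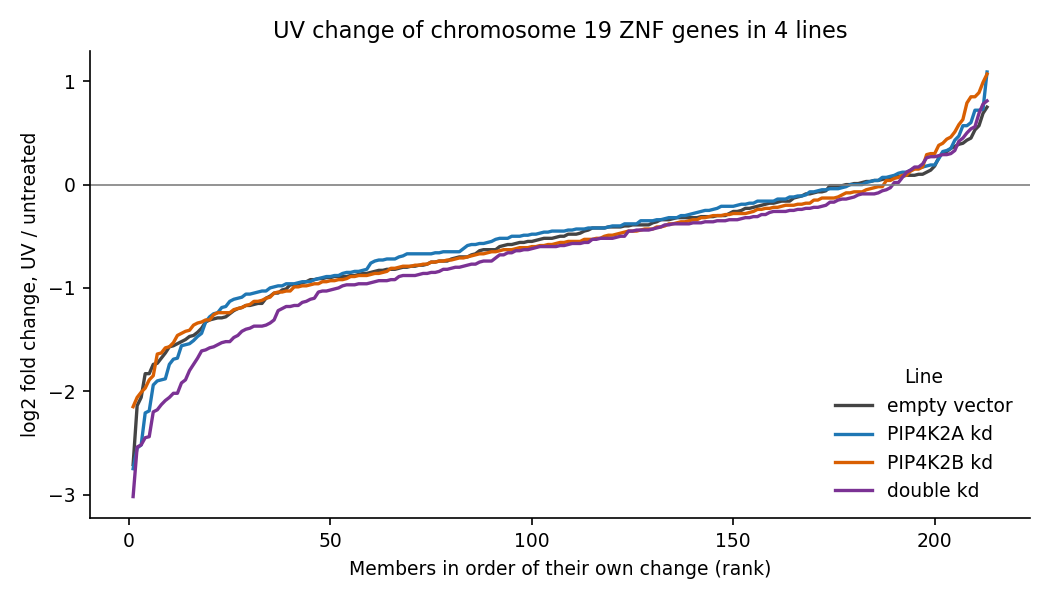
Log2 fold change of UV over untreated (vertical axis) for the 213 tested members, each line sorting its own changes from lowest to highest (horizontal axis, rank), 1 curve per cell line. All 4 curves cross 0 near the right end, and the lowest member reached -3.02 in the double knockdown.

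Some of the falls were called in all 4 lines. Log2 changes were below 0 in all 4 lines for 159 of 213 members (74.6%) and above 0 in all 4 for 11 (5.16%), against 30.3% and 32.3% of all genes. Members that fell in all 4 lines numbered 56, or 26.3% of those tested, against 6.82% of all tested genes. These 56 were 76.7% of the members that fell in vector cells, 61.5% of those in the PIP4K2A knockdown, 52.3% in the PIP4K2B knockdown and 47.5% in the double knockdown. In at least 1 line 141 members fell and 9 rose. No member rose in 1 line and fell in another, and 63 passed in none. A scaling to 82 cytosolic ribosomal protein genes put the median of all genes at -0.69 in vector cells and at -0.79, -0.89 and -0.84 in the PIP4K2A, PIP4K2B and double knockdowns. Relative to that median the members stood at -0.53, -0.47, -0.57 and -0.62, against -0.52, -0.46, -0.56 and -0.61 under the main scaling. Such a scaling moves all genes of a comparison by nearly the same amount, so these relative values could hardly change and are no separate support. Under the ribosomal scaling 177, 194, 196 and 199 members fell and none rose, while 47.6%, 64.1%, 66.5% and 64.4% of all genes fell and under 1% rose.

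ZNF823, a KRAB zinc finger gene with 15 finger patterns (ENSG00000197933, chr19:11721265-11739009), had some of the steepest falls. It stood at 3.28 CPM in the untreated vector library and at 0.627 and 0.695 CPM after UV, in the PIP4K2A knockdown at 3.2 and 3.04 against 0.238 and 0.524, with PIP4K2B hairpins at 4.67 and 4.19 against 0.779 and 0.939, and in double knockdown cells at 3.34 and 2.75 against 0.434 and 0.405. Every library after UV was below every untreated one. Lack of overlap between the groups compared was a condition for naming genes, so here and below it is no separate support. Its log2 changes were -2.06 (SE 0.297), -2.75 (SE 0.28), -2.06 (SE 0.247) and -2.52 (SE 0.281), with edgeR adjusted p from 2.87e-05 to 0.000562. Its closest member is ZNF443, 89.1% identical.

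ZNF20 (ENSG00000132010, chr19:12092843-12140407), the first promoter printed above, stood at 5.25 CPM in the untreated vector library and at 0.969 and 0.995 CPM after UV. In the other lines it ranged from 1.08 to 4.45 CPM untreated and from 0.47 to 0.896 after UV, again without overlap. Its log2 changes were -2.14 (SE 0.466), -2.21 (SE 0.434), -1.85 (SE 0.423) and -1.60 (SE 0.466), all past the test (largest edgeR adjusted p = 0.0177). The gene overlaps the annotated readthrough ZNF625-ZNF20 on the same strand, so the source of its reads is uncertain.

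ZNF627 (chr19:11559374-11619135) and ZNF675 (chr19:23525631-23687220) were measured with more counts. ZNF627 stood at 8.07 CPM in the untreated vector library and 7.27 to 9.36 in the other untreated ones, and at 1.99 to 2.81 CPM in the 8 libraries after UV. Its log2 changes lay between -1.73 and -1.51 in the 4 lines, with standard errors of 0.156 to 0.184 and edgeR adjusted p of at most 6.59e-05. ZNF675, known for limiting signalling through TRAF6, stood at 6.19 CPM in the untreated vector library and 2.06 and 1.48 CPM after UV, a log2 change of -1.54 (SE 0.209). It stood at 6.25 and 7.04 CPM against 1.14 and 1.28 in the PIP4K2B knockdown, a change of -2.15 (SE 0.188), and at 8.13 and 7.27 against 1.46 and 1.25 in the double knockdown, a change of -2.18 (SE 0.186, edgeR adjusted p = 5.32e-06). In neither gene did untreated and UV libraries overlap.

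ZNF350, the product of which is a KRAB repressor known to bind BRCA1, fell from 5.7 CPM to 1.35 and 1.33 CPM in vector cells, with a log2 change of -1.83 (SE 0.236, edgeR adjusted p = 0.000248). It also fell in the 3 knockdown lines, where its log2 changes were -1.06, -1.36 and -1.61. ZNF71 fell from 14.2 CPM to 3.64 and 3.03 CPM in vector cells, a log2 change of -1.83, and its changes in the other lines were -1.24, -1.13 and -1.03, all past the test. ZNF254, the second promoter printed above, was at 4.96 and 3.68 CPM in untreated double knockdown cells and dropped to 0.62 and 0.561 CPM with UV, a change of -2.54 (SE 0.255), against -1.22 (SE 0.272) in vector cells. ZNF564 had the lowest value of all, -3.02 (SE 0.492) in the double knockdown, from 1.89 and 3.9 CPM to 0.278 and 0.296 CPM. Its change of -0.99 in the PIP4K2B knockdown did not pass (edgeR adjusted p = 0.077).

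**Figure D2:**
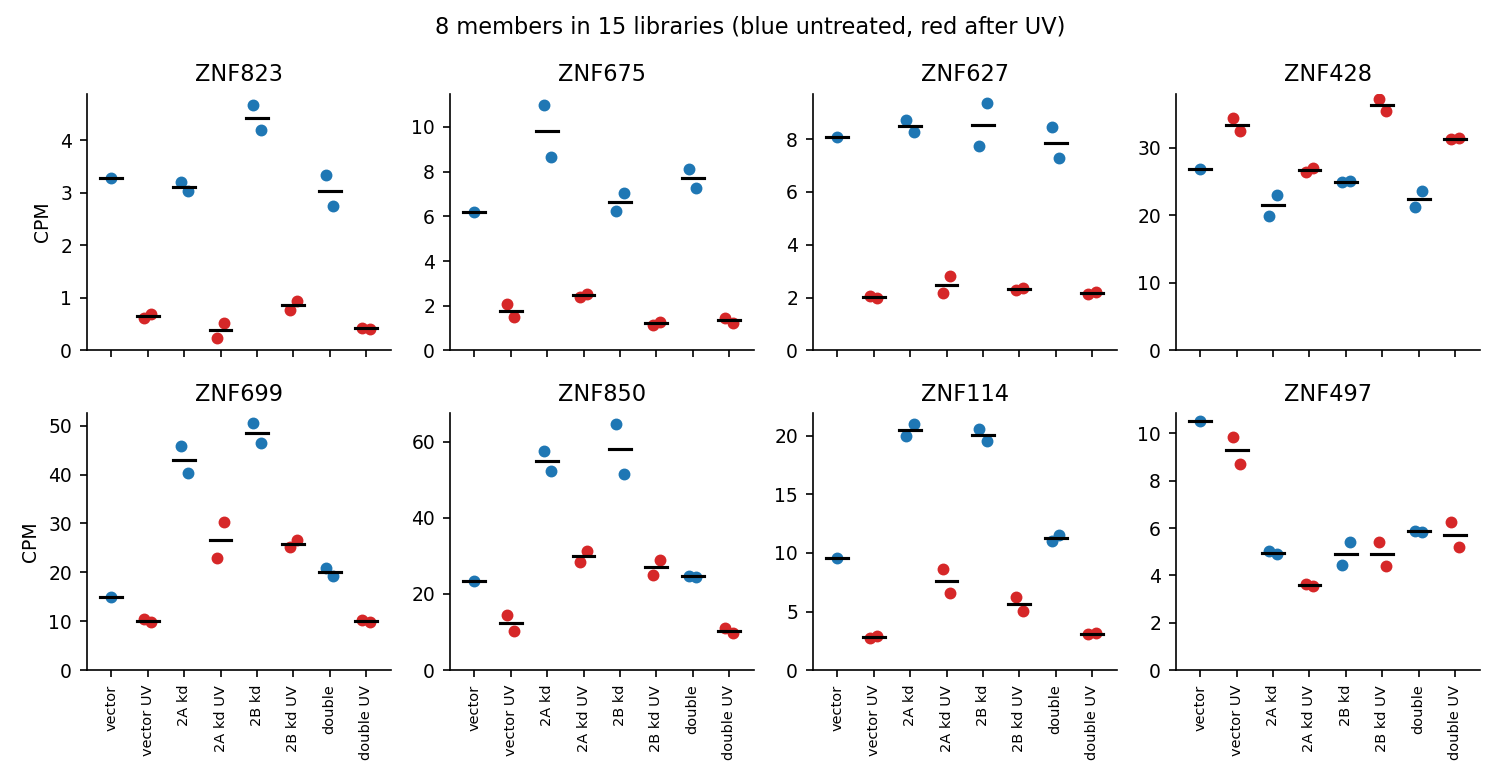
Level in CPM (vertical axis, linear from 0) of 8 members in 15 libraries by group (horizontal axis), with 1 point per library, blue for untreated and red for after UV, and a bar at the group mean. ZNF823, ZNF675 and ZNF627 show UV libraries below all untreated ones, ZNF428 the reverse within each line, ZNF699, ZNF850 and ZNF114 are highest in the untreated single knockdowns, and ZNF497 is highest in vector cells.

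The KRAB pattern was not found in ZNF428, ZNF358, ZNF580, ZNF296 and ZNF414, which are 5 of the 9 members that rose after UV in at least 1 line. The others, ZNF302, ZNF181, ZNF761 and ZNF599, have it, as do 82.2% of all 241 members. This split was not tested. ZNF428 (chr19:43607219-43619874), with 1 finger pattern, was the only member that rose in all 4 lines. In vector cells it went from 26.9 CPM to 34.4 and 32.5 CPM with UV, a log2 change of 0.57 (SE 0.124, edgeR adjusted p = 0.00759). Untreated double knockdown cells had 21.3 and 23.6 CPM and UV-treated ones 31.3 and 31.4 CPM, a change of 0.81 (SE 0.101). Within each line its UV libraries were above its untreated ones. Under the ribosomal protein scaling its changes were -0.15, -0.23, -0.06 and -0.05 in the 4 lines. It overlaps SRRM5 on the opposite strand.

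ZNF358 and ZNF580, among the members with the highest levels, rose in the 3 knockdown lines. ZNF358 rose by 0.72, 0.85 and 0.69 on the log2 scale in the PIP4K2A, PIP4K2B and double knockdowns, and its change of 0.53 in vector cells did not pass (edgeR adjusted p = 0.105). ZNF580 rose by 1.09, 1.07 and 0.78, with 0.69 in vector cells (adjusted p = 0.149). It overlaps CCDC106 and ZNF581 on the same strand. In the PIP4K2A knockdown after UV these genes differed between replicates, with 39.8 and 19.4 CPM for ZNF580 and 65.6 and 41.5 CPM for ZNF358. ZNF296, ZNF414 and the KRAB gene ZNF302 rose in the PIP4K2B knockdown by 0.89, 0.63 and 0.46, and ZNF296 and ZNF302 also in the PIP4K2A knockdown, by 0.72 and 0.33. ZNF181 rose by 0.47 and 0.40 in the PIP4K2A and PIP4K2B knockdowns, and ZNF761 by 0.32 in the PIP4K2A knockdown. ZNF181, ZNF761 and ZNF599 have the KRAB pattern. ZNF599 rose in vector cells by 0.75 (SE 0.228, edgeR adjusted p = 0.0376), from 3.25 CPM to 4.92 and 4.23 CPM, and in the PIP4K2A and double knockdowns by 0.57 and 0.56. Under the ribosomal protein scaling no member rose, and ZNF358, ZNF580, ZNF296, ZNF414, ZNF302 and ZNF599 each had a negative value in at least 1 line in which they had risen.

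Other genes of the chromosome were called in both directions. Of 882 other tested protein-coding genes of chromosome 19, 62 fell and 97 rose in vector cells, with a median log2 change of 0.16. In the PIP4K2B knockdown 53 of them fell and 371 rose, with a median of 0.44. Their medians in the PIP4K2A and double knockdowns were 0.24 and 0.35. Of 226 tested ZNF genes of other chromosomes, 84 fell and 4 rose in vector cells (median -0.38) and 107 fell and 14 rose in the double knockdown (median -0.40). The shares that fell in vector cells and the PIP4K2A, PIP4K2B and double knockdowns were 37.2%, 35.4%, 48.2% and 47.3%. Among members they were 34.3%, 42.7%, 50.2% and 55.4%. Of 22 other zinc finger genes of chromosome 19, with symbols outside the rule, 6 fell and none rose in vector cells. Under the ribosomal protein scaling the medians in vector cells were -1.22 for the members, -1.09 for ZNF genes of other chromosomes and -0.56 for the other protein-coding genes of chromosome 19. These sets share libraries and were not tested against each other.

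Members were also grouped by the length of the gene from start to end (its span). Members of under 10 kb (24 tested) had median log2 changes of 0.03, -0.16, -0.04 and -0.10 in vector cells and the PIP4K2A, PIP4K2B and double knockdowns. Members of 40 kb or more (45 tested) had medians of -0.67, -0.65, -0.80 and -0.86. Other protein-coding genes went from 0.24, 0.23, 0.38 and 0.37 under 10 kb to 0.01, 0.04, -0.03 and 0.01 at 40 kb or more. At each span class the member median was below that of the other genes in all 4 lines. By mean level, members of 10 CPM or more (61 tested) had medians of -0.31, -0.33, -0.38 and -0.35, against 0.11, 0.14, 0.12 and 0.17 for other protein-coding genes at that level. Members of 1 to 3 CPM (39 tested) stood at -0.77, -0.58, -0.74 and -0.89, against -0.01, -0.06, -0.01 and -0.01.

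**Figure D3:**
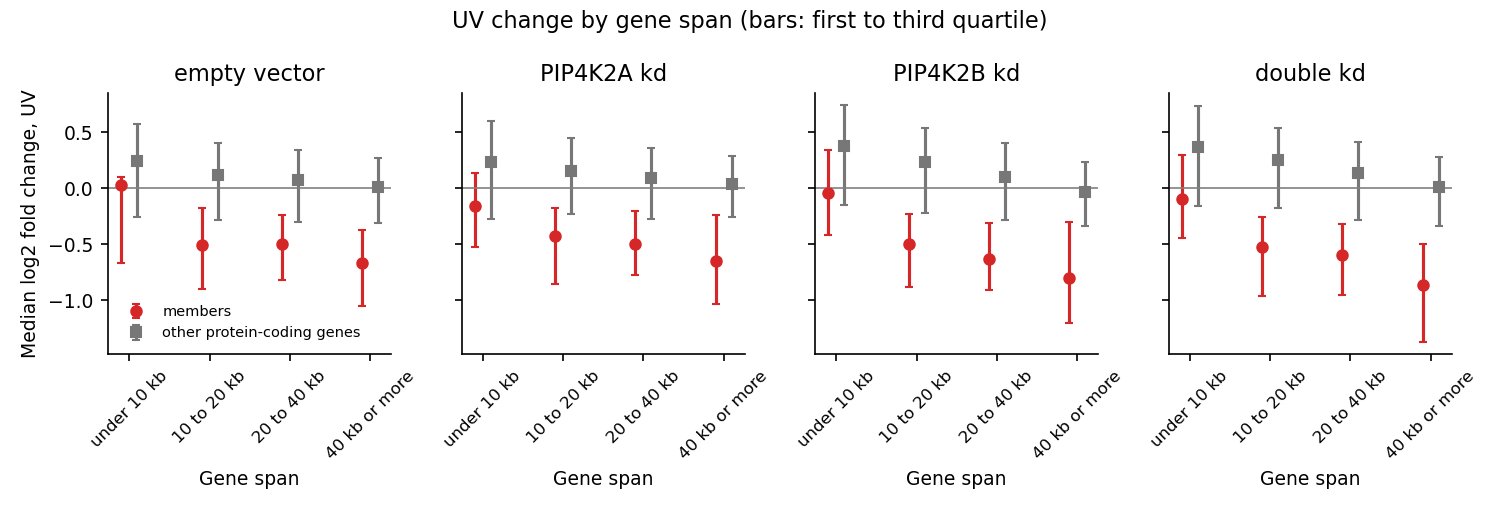
Median log2 fold change after UV (vertical axis, bars from lower to upper quartile) by gene span (horizontal axis) in the 4 lines, for members (red circles) and other protein-coding genes (grey squares). Member medians lie below the others at every span, from 0.03 against 0.24 under 10 kb to -0.67 against 0.01 at 40 kb or more in vector cells.

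The falls were unevenly spread over the gene clusters. The cluster from ZNF653 to ZNF791 (chr19:11483427-12640098, 25 members, 23 tested) had the lowest median in vector cells, -1.08, and 14 of its members fell. In the PIP4K2A, PIP4K2B and double knockdowns its medians were -1.11, -0.96 and -1.52, and 17, 14 and 19 members fell. ZNF823, ZNF20, ZNF627, ZNF564, ZNF443, ZNF799 and ZNF44 belong to it. The cluster from ZNF101 to ZNF254 (chr19:19668796-24129961), which holds ZNF675, ZNF93 and ZNF91, had 37 members, of which 18 were tested, and a median level of 0.01 TPM. Its medians were -0.73, -0.93, -1.08 and -1.29. The 5 members from ZNF302 to ZNF792 had medians of 0.26, 0.33, 0.15 and 0.29 and moved in both directions. ZNF302, ZNF181 and ZNF599 were above 0 in every line, while ZNF792 fell in all 4 (-1.63, -1.69, -1.46 and -2.02) and ZNF30 fell in vector and double knockdown cells (-0.94 and -0.93). The largest cluster, ZNF264 to ZNF446 with 41 members all tested, had medians of -0.41, -0.28, -0.41 and -0.38, with 11, 13, 17 and 19 members that fell. Members of a cluster share sequence and are not independent.

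**Figure D4:**
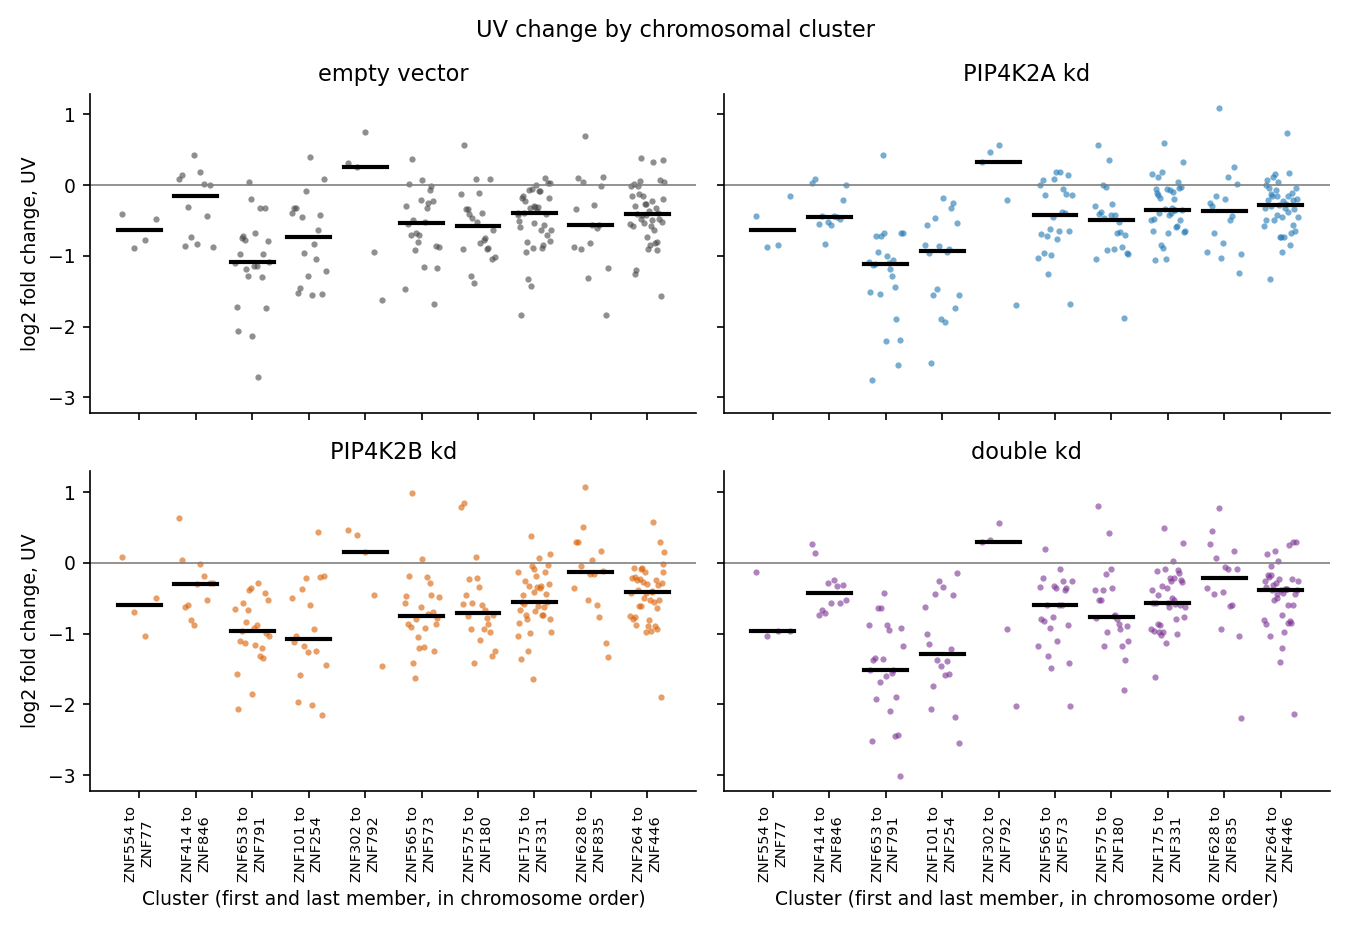
Log2 fold change after UV (vertical axis) of single members (points) in the 10 clusters with at least 5 members (horizontal axis, in chromosome order, named by first and last member), with a bar at the cluster median, in 4 lines. The cluster ZNF653 to ZNF791 lies lowest in vector cells at a median of -1.08, and the median of ZNF302 to ZNF792 is above 0 in all 4 lines.

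Members with and without the KRAB pattern both had negative medians. In vector cells 59 of 173 with it fell (median -0.51) and 14 of 40 without it (median -0.44). In the PIP4K2B knockdown 90 and 17 fell, with medians of -0.60 and -0.29. Members with the ETS letters in the promoter (80 tested) had medians of -0.42, -0.35, -0.42 and -0.44, and those without them (110 tested) -0.56, -0.58, -0.63 and -0.74. Among the 23 tested members with a copy of 90% identity or more, 7 fell in vector cells (median -0.32), against 66 of 190 others (median -0.52). These splits were not tested.

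The size of the UV response was then compared between lines. No member differed from vector cells in its UV response in any knockdown line at an edgeR adjusted p under 0.05, and DESeq2 gave 0 as well. For the PIP4K2A knockdown 0.00885% of all genes passed, for PIP4K2B 0.0% and for the double knockdown 0.00885%. At an unadjusted p under 0.05, 6, 15 and 12 members differed, with shares of 4.91, 7.32 and 5.35% of all genes. The lowest adjusted p among members were 0.901, 0.672 and 0.898. Without the second PIP4K2A knockdown library after UV, 9 members passed for that line, while 8.28% of all genes did. The greater number of falls in the knockdown lines is thus not shown to be a greater response. In simulated data, changes of 2 fold in members were recovered in 32.5% of cases for UV in vector cells and in 59.4% for UV in the PIP4K2A knockdown. The simulation changed a far smaller share of genes than the 18.5% and 30.6% called in the data, which makes its adjusted threshold stricter. Differences in UV response were not simulated, so their recovery is not known.

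In untreated cells the share of members that were higher in the single knockdowns than in vector cells was near that of all genes, and the share that were lower was below that of all genes. In the PIP4K2A knockdown 8 members rose (3.76%) and 1 fell (0.469%), against 3.71% and 4.13% of all genes. In the PIP4K2B knockdown 15 rose (7.04%) and 1 fell, against 5.26% and 4.99%. In the double knockdown 1 rose and 5 fell, against 3.24% and 2.96%. Median changes of the members were 0.09, 0.15 and -0.13. Scaled to ribosomal protein genes, the median of all genes moved to 0.31, 0.14 and 0.24 and that of the members to 0.40, 0.30 and 0.13, which turns its sign in the double knockdown. On that scale 26, 13 and 1 members rose (12.2%, 6.1% and 0.469%) and 1 fell in each line, while 9.51%, 5.4% and 6.63% of all genes rose and 1.31%, 2.39% and 0.974% fell. The 3 comparisons share the 1 untreated vector library, and with the set-aside vector library included 1, 1 and 0 members passed, with 0.177%, 0.711% and 0.204% of all genes. Without the second untreated PIP4K2A library 22 members passed in that line, with 8.44% of all genes, and without the first untreated PIP4K2B library 5 in its line, with 4.88%.

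ZNF699 (chr19:9294275-9309838), whose promoter is printed above, was at 15 CPM in the vector library. It was at 45.8 and 40.3 CPM with PIP4K2A hairpins, at 50.5 and 46.4 with PIP4K2B hairpins and at 20.9 and 19.3 with both. The single knockdowns were above all other untreated libraries. Its log2 changes against vector were 1.48 (SE 0.159), 1.72 (SE 0.16) and 0.40 (SE 0.154), with edgeR adjusted p of 0.000162, 3.37e-05 and 0.171. The double knockdown was lower than the PIP4K2A and PIP4K2B knockdowns, with log2 changes of -1.09 and -1.32 (edgeR adjusted p of 0.000181 and 1.6e-05).

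ZNF850 (chr19:36714383-36772825), with 30 finger patterns, had the same order. Its levels were 23.5 CPM in the vector library, 57.6 and 52.3 CPM with PIP4K2A hairpins, 64.7 and 51.4 with PIP4K2B hairpins and 24.7 and 24.5 with both. Its changes against vector were 1.19 (SE 0.186), 1.33 (SE 0.187) and 0.04 (SE 0.18), the last with an edgeR adjusted p of 0.94. It overlaps ZNF567 on the opposite strand, and ZNF567 also rose in both single knockdowns, by 0.79 and 0.82, so reads of the pair cannot be told apart without the strand setting.

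ZNF114 stood at 9.57 CPM in the vector library, between 19.5 and 21.0 CPM in the 4 libraries of the single knockdowns, and at 11 and 11.5 CPM in those of the double knockdown. Its rises of 1.06 and 1.10 passed the test, and the double knockdown was lower than either single one (log2 changes -0.85 and -0.89). ZNF100 rose by 1.14 in the PIP4K2A and by 0.81 in the PIP4K2B knockdown and was at 0.09 in the double knockdown. ZNF404 and ZNF442 rose in the PIP4K2B knockdown, by 1.22 and 1.59. ZNF93, whose product silences LINE-1 retrotransposons, stood at 1.05 CPM in the vector library, at 3.92 and 3.79 in the PIP4K2A knockdown and at 2.94 and 2.93 in the double knockdown. Its rises of 1.84 and 1.46 passed, and 1.02 in the PIP4K2B knockdown did not (edgeR adjusted p = 0.1). Without a second vector library, these differences from vector rest on 1 control sample.

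Lower levels in the knockdowns were led by ZNF497, which lacks the KRAB pattern. It stood at 10.5 CPM in the vector library and at 5.03 and 4.9, 4.43 and 5.41, and 5.88 and 5.83 CPM in the PIP4K2A, PIP4K2B and double knockdowns. Its changes of -1.13, -1.07 and -0.88 passed in all 3 lines, and its UV changes passed in none. The double knockdown also had lower ZNF135 (-1.14), ZNF584 (-0.66), ZNF324 (-0.61) and ZNF528 (-0.58), all with edgeR adjusted p between 0.0187 and 0.043. ZNF497, ZNF135, ZNF584 and ZNF324 lie in the cluster from ZNF264 to ZNF446, where 39 of 41 members had values below 0 in the double knockdown. Of all tested members 136 of 213 were below 0 there, and of all tested genes 11468 of 22597. All these values share the 1 untreated vector library. With the first or second untreated double knockdown library left out, 1 and 0 members passed in that line.

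**Figure D5:**
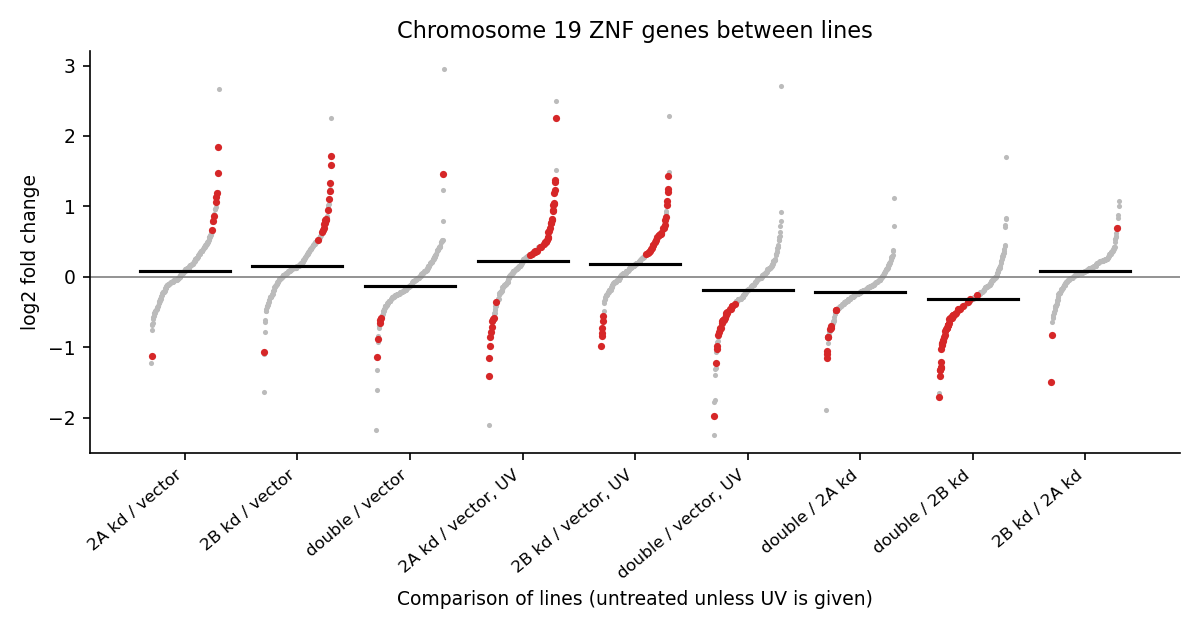
Log2 fold change (vertical axis) of the 213 tested members in 9 comparisons between lines (horizontal axis), sorted within each, red where the edgeR adjusted p was under 0.05 and grey otherwise, with a bar at the median. The double knockdown against the PIP4K2B knockdown has 44 red points, all below 0.

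The comparison of the untreated double with the untreated single knockdowns has 2 libraries on each side and does not use the vector. Set against the PIP4K2B knockdown, 44 members were lower and none higher in the double knockdown, while 8.06% of all genes were lower and 7.32% higher. The median change of the members was -0.31, and the 44 ranged from ZNF442 at -1.70 (SE 0.353) and ZNF404 at -1.41 (SE 0.197) upward. Against the PIP4K2A knockdown 10 members were lower and none higher, against 3.57% and 3.53% of all genes, with a median of -0.22. Of the other protein-coding genes of chromosome 19, 48 were lower and 67 higher than in the PIP4K2B knockdown, with a median of 0.03. Of the ZNF genes of other chromosomes 20 were lower and 14 higher, with a median of -0.10. In the cluster from ZNF264 to ZNF446, 40 of 41 members had values below 0, and 10 were lower. Against the PIP4K2B knockdown 177 of all 213 tested members and 11541 of 22597 tested genes had values below 0. With the ribosomal protein scaling 22 members (10.3%) were lower and none higher than in the PIP4K2B knockdown, while 4.07% of all genes were lower and 8.75% higher. Leaving out 1 of the libraries compared leaves 1 library in a group, so medians are given here. Against the PIP4K2B knockdown the member median was then -0.37 to -0.26, and that of all genes -0.02 to 0.0. Against the PIP4K2A knockdown these were -0.29 to -0.17 and -0.03 to -0.01. A smaller share of all genes was called in each case. Fewer members were called against the PIP4K2B knockdown in each case. Against the PIP4K2A knockdown the number of called members moved in both directions.

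The single knockdowns differed from each other in few members. ZNF426 was higher in the PIP4K2B than in the PIP4K2A knockdown by 0.70 (SE 0.106), at 33.5 and 35.0 against 23.9 and 20.3 CPM. ZNF85 and ZNF91 were lower, with changes of -1.49 (SE 0.32) and -0.82 (SE 0.123). Thus 1 member was higher and 2 lower, while 1.45% and 1.71% of all genes were. Under the ribosomal protein scaling none was higher and 3 were lower (1.41%), against 0.447% and 2.52% of all genes, whose median was -0.14. Without the second untreated PIP4K2B library 1 member passed. ZNF91, whose product silences SVA retrotransposons, stood at 16.9 and 14.6 CPM in cells with PIP4K2A hairpins, 9.13 and 7.99 in those with PIP4K2B hairpins and 8.49 in the vector library.

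After UV vector cells have 2 libraries, and ZNF699, ZNF850 and ZNF114 were again higher in both single knockdowns. In the PIP4K2A knockdown 31 members were higher and 10 lower than in vector cells, against 11.3% and 9.01% of all genes. In the PIP4K2B knockdown 25 were higher and 6 lower, against 10.7% and 8.3%. In the double knockdown none was higher and 24 were lower, against 8.5% and 6.86%. ZNF699 stood at 10.4 and 9.85 CPM in vector cells after UV, at 22.9 and 30.2 with PIP4K2A hairpins, at 25.1 and 26.6 with PIP4K2B hairpins and at 10.3 and 9.94 with both. Its changes were 1.35 (SE 0.125), 1.43 (SE 0.125) and 0.04 (SE 0.129), and the first 2 passed. ZNF850 and ZNF114 were higher in both single knockdowns, by 1.23 and 1.20 and by 1.38 and 1.07, and were at -0.21 and 0.18 in the double knockdown. ZNF497 was lower in all 3 lines, with changes of -1.41, -0.84 and -0.65.

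In the double knockdown after UV the largest differences from vector cells were ZNF132 (-0.98), ZNF700 (-0.82) and ZNF324 (-0.79). ZNF324 stood at 8.73 and 9.11 CPM in vector cells and at 5.03 and 4.97 in the double knockdown, with an edgeR adjusted p of 0.00107. Of the 24 members that were lower, 10 lie in the cluster from ZNF264 to ZNF446, where 37 of 41 had values below 0. Of all tested members 151 of 213 had values below 0, and of all tested genes 11386 of 22597. Under the ribosomal protein scaling, which put the median of all genes at 0.22, -0.03 and 0.10, members were higher and lower in numbers of 55 and 6 with PIP4K2A hairpins, 11 and 5 with PIP4K2B hairpins and 1 and 7 with both. The shares of all genes on that scale were 19.9% and 3.79%, 8.1% and 6.6%, and 11.2% and 3.43%, against 25.8% and 2.82%, 5.16% and 2.35%, and 0.469% and 3.29% of members. The counts after UV moved with single libraries. Fewer members, and a smaller share of all genes, were called without any 1 vector, PIP4K2B or double knockdown library. Without a PIP4K2A knockdown library a larger share of all genes was called. Member medians without the first or second vector library were 0.25 and 0.15 for the PIP4K2A and 0.23 and 0.14 for the PIP4K2B knockdown. For the double knockdown they were -0.13 and -0.26. Without the first or second knockdown library they were 0.17 and 0.19, 0.17 and 0.2, and -0.2 and -0.19 in the same order. The medians of all genes then lay between -0.02 and 0.02.

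Changes in transcript length passed the test in few members, as in few genes overall. The deposited tables give for each gene and library a mean transcript length weighted by isoform abundance, and 140 members had enough counts for a limma test of its log2 value. In vector cells no member passed, while 0.424% of all 11544 genes tested lengthened and 0.39% shortened. At an unadjusted p under 0.05, 25 of the 140 passed there, against 11% of all genes. In the PIP4K2A knockdown 0 lengthened and 1 shortened, against 1.05% and 1.17%. In the PIP4K2B knockdown the counts were 0 and 2, against 0.589% and 0.901%. They were 1 and 2 in the double knockdown, against 1.03% and 1.4%. Passing at an unadjusted limma p under 0.05 were 24, 18 and 21 of the 140 in these 3 lines. The shares of all genes were 17.7%, 13.4% and 14.2%. ZNF226 shortened in the 3 knockdown lines, with log2 changes of -0.98, -0.74 and -1.05 (SE 0.13 each, limma adjusted p of 0.0116, 0.0367 and 0.00876). Its length in double knockdown cells was 2265 and 2181 bases untreated and 1048 and 1094 after UV. In vector cells it was 1565 bases in the 1 untreated library and 1602 and 1752 after UV. ZNF614 shortened in the PIP4K2B and double knockdowns (changes of -0.23 and -0.29), with -0.26 in vector cells (limma adjusted p = 0.0502), and ZNF324 lengthened by 0.27 in the double knockdown. Without the second PIP4K2A knockdown library after UV, 20 members passed in that line, with 18.1% of all genes, and without other single libraries the counts were 0 to 3.

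Genes for the factors with which KRAB zinc finger proteins act moved in both directions after UV. Of 36 genes for silencing partners (corepressors, HP1 proteins, histone deacetylase complex subunits, HUSH and DNA methylation factors), all tested, 4 rose and 7 fell after UV in vector cells, 12 and 7 with PIP4K2A hairpins, 10 and 8 with PIP4K2B hairpins and 10 and 6 with both. As shares these were 11.1% and 19.4%, 33.3% and 19.4%, 27.8% and 22.2%, and 27.8% and 16.7%, against 8.67% and 9.82%, 16.6% and 14%, 17.5% and 15.4%, and 19.1% and 16.1% of all genes. TRIM28, the shared corepressor, was at 243 to 409 CPM in the 7 untreated libraries and 284 to 519 CPM after UV. It rose in the 3 knockdown lines, by 0.36, 0.76 and 0.69, and its value of 0.36 in vector cells did not pass (edgeR adjusted p = 0.117). SETDB1, which methylates lysine 9 of histone H3, was at 39.6 to 42.1 CPM untreated and 20.3 to 28.4 CPM after UV, without overlap, and fell in all 4 lines, with changes of -0.69, -0.40, -0.50 and -0.61. RESF1, a partner of SETDB1, had changes of -0.79, -0.49, -1.12 and -1.25, each past the test. MORC3, DNMT3B, ATF7IP and GATAD2B also fell in all 4 lines, and CBX1, HDAC1 and RBBP7 rose in all 4. The ribosomal protein scaling turned the rises: TRIM28 then stood at -0.37, -0.45, -0.14 and -0.18, CBX1, HDAC1 and RBBP7 were below 0 in every line, and 0 of the 36 genes rose in any line while 27, 32, 33 and 33 fell (75%, 88.9%, 91.7% and 91.7%), beside the falls of 47.6%, 64.1%, 66.5% and 64.4% of all genes. In untreated cells TRIM28 was lower than in vector cells in the PIP4K2A knockdown (-0.57, edgeR adjusted p = 0.0321) and the double knockdown (-0.71, edgeR adjusted p = 0.0111), and its value was -0.04 in the PIP4K2B knockdown. The double knockdown was lower than the PIP4K2B knockdown (-0.67, edgeR adjusted p = 0.00221), and its difference from the PIP4K2A knockdown did not pass (-0.15, edgeR adjusted p = 0.58). Under the ribosomal protein scaling the differences from vector were -0.27, -0.46 and, with PIP4K2B hairpins, 0.11, none past the test, and that from the PIP4K2B knockdown was -0.57 (edgeR adjusted p = 0.00503).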

How the data were processed

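Each deposited table holds 1 library with 60666 genes. Per the file headers its values are expected counts, TPM and a mean transcript length (another unit, in bases), which the authors did not scale further. STAR, SAMtools and RSEM are the tools, and GRCh38 the build, in the submitters' processing notes. Which step each tool did, the annotation release and the counting strand were not given in the sources used here. Members came from GENCODE release 29, and 240 of 241 are also protein-coding in the RefSeq gene table.

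Expected counts were rounded and tested in edgeR 4.0.16 (R 4.3.3): filterByExpr at a minimum count of 10, TMM scaling, 1 term per group over 15 libraries, quasi-likelihood F test, Benjamini-Hochberg adjustment over 22597 genes, calls at an adjusted p under 0.05. CPM values are counts per library total without TMM factors (0.873 to 1.15). The factors were higher in every untreated library than in any library after UV. Printed CPM values therefore make falls after UV look larger, and rises smaller, than the log2 changes. Standard errors are the log2 change divided by the root of F. Lengths were tested in limma 3.58.1 on their log2 values, where a gene averaged 100 counts or more. Both fits were tested on simulated data for UV in vector cells and in the PIP4K2A knockdown.

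Fingers and KRAB were pattern matches in the translated longest GENCODE coding sequence, and identities came from blastn 2.17.0, in place of the protein comparison first planned. Named genes were the largest changes past the test, at an average of 1 CPM or more and without overlap between groups (6 per direction for UV, 5 for untreated knockdowns, 3 otherwise), and the 10 highest TPM. ZNF181, ZNF761, ZNF792 and ZNF30 were outside that rule and were named after their values were seen. The members and lists were chosen with earlier results of these data known. Alternatives were all 16 libraries, RLE factors, ribosomal protein scaling, other filters, DESeq2 1.42.0, only the groups compared, a replicate block and leaving out each library. Python 3.11.15, pandas 2.3.3, numpy 2.4.6, matplotlib 3.10.9 and Biopython 1.88 were used.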

Additional observations from a re-analysis of the deposited data

Results flagged for a closer look

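The untreated empty-vector library that was set aside carried more signal from the members than any other library. Their summed level was 6956 CPM, against 2168 to 2739 CPM in the 7 other untreated libraries, and 235 members had a count above 0, against 214 to 224 in the other 15. This was seen although the library held 1.28 M counts against at least 28.0 M elsewhere. Summed blood markers were 95.4 CPM there against 0.779 to 2.36, ZNF genes of other chromosomes summed to 10541 CPM against 4873 to 7493, and TRIM28 stood at 58.7 CPM against 243 to 519. The part of these in the members' level was not tested.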

How the results depend on the processing

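Values given in this order are for UV in vector cells and in the PIP4K2A, PIP4K2B and double knockdowns; then the PIP4K2A, PIP4K2B and double knockdowns against vector untreated, and the same after UV; then double against PIP4K2A, double against PIP4K2B, and PIP4K2B against PIP4K2A. RLE factors, a filter of CPM above 1 in 2 libraries and DESeq2 kept each of these counts of called members within 1.5 times. With all 16 libraries the counts after the first were 5, 7, 10, 1, 1, 0, 2, 2, 0, 0, 2 and 0. The coefficient of variation between libraries that edgeR estimated was then 41.9% against 11.3%. With ribosomal protein scaling UV gave 177, 194, 196 and 199, untreated PIP4K2A 27, untreated double 2, PIP4K2B and double after UV 16 and 8, and double against PIP4K2B 22. Without the low-count filter untreated PIP4K2A gave 17 and the UV-response difference for PIP4K2B 1. With only the groups compared, UV in PIP4K2A gave 33, the untreated lines 17, 38 and 23, and PIP4K2A and double after UV 6 and 48. The causes were not tested.

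Leaving out 1 library gave 43 to 51, 66 to 102, 72 to 102, 80 to 89, 7 to 22, 5 to 11, 0 to 1, 16 to 56, 6 to 12, 4 to 13, 4 to 13, 18 to 35 and 1 to 3 called members. It gave 0 to 9, 0 and 0 for UV-response differences, the 9 without the second PIP4K2A knockdown library after UV. For length it gave 0, 0 to 20, 0 to 1 and 0 to 3. Length counts with a mean of 500 counts were 1, 1 and 1 in vector, PIP4K2B and double knockdown cells, with 30 counts 5 in the double knockdown, and with 16 libraries 0, 0 and 1 in the knockdowns. The share of all genes called also moved when 1 library was left out, so these counts alone do not set members apart from other genes. Replicate numbers do not pair the groups (21 pairs, correlations from -0.116 to 0.188, 3 over 0.1), and the replicate block gave 7 members for untreated PIP4K2B and 3 for the untreated double knockdown.

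Among named members, 16 libraries turned ZNF599 to -1.68 (UV, vector), ZNF442 to -2.28 (untreated PIP4K2B) and ZNF324 to 0.0 (untreated double). Ribosomal protein scaling turned ZNF428 to -0.15, -0.23, -0.06 and -0.05 in the 4 lines, ZNF296, ZNF358, ZNF414 and ZNF302 to -0.01, -0.05, -0.27 and -0.44 in the PIP4K2B knockdown, and ZNF580, ZNF358 and ZNF599 to -0.08, -0.17 and -0.31 in the double knockdown. Depth limits the 28 members that were not tested, and changes of 1.5 fold in members were recovered in 0.0% of simulated cases for UV in vector cells. In the simulation far fewer genes changed than in the data, so its adjusted threshold was stricter. In the data a log2 change of 0.57 (ZNF428) was called in vector cells.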
